A study of Mus musculus with 6 samples.

Results

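The actin cytoskeleton was followed through 40 genes chosen by name from general knowledge of the pathway. They cover the actins, the Arp2/3 complex, proteins that bind, cut, crosslink or anchor filaments, non-muscle myosin, and the transcriptional regulators SRF and FHL2. The choice was made with earlier results of these data known, so the shares given below do not come from a blind list. Of these 40 genes 37 were measured, among 18193 genes in all, each through its brightest probe set on average. Actr2 and Arpc3 were not analysed here, and Arpc1b was left out because its probe sets carry a second gene symbol. Bone marrow cells of C57BL/6 mice were transfected at 100 nM with a mimic of the microRNA miR-142-3p (3 arrays) or with a control oligonucleotide (3 arrays), using the reagent GeneSilencer in each group. After 5 h all cells received GM-CSF and IL-6 for 4 days, a culture that yields myeloid-derived suppressor cells, and RNA was hybridised to Affymetrix MOE430 2.0 arrays. The age of the mice is not given in the sources used here, and nothing states whether arrays of 1 group stem from different mice or cultures; the p-values therefore cover the spread among these arrays alone, possibly a technical one. Having 3 arrays per group limits the precision.

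Actin monomers join into filaments that push the cell edge forward, pull with myosin, and anchor adhesion and membrane proteins. Nucleators such as Arp2/3 start filaments, profilin and cofilin feed and dismantle them, and crosslinkers, tropomyosins and myosin shape and tighten them. The transcription factor SRF, with cofactors that sense free actin, switches on many of these genes. In marrow myeloid cells the system carries out migration, engulfment of particles and the growth of dendrites.

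The mimic copies a small RNA that is itself abundant in blood cells. It is shown here because it is the only agent that differs between the groups. RefSeq (GRCm38.p6) places the mature form on the plus strand at chr11:87756903-87756925, and its seed, bases 2 to 8, is in capitals.
mmu-miR-142a-3p: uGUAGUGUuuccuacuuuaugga
Target sites in transcripts were not looked for.

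Levels below are deposited log2 values, given by array or as mean ± SD over 3 arrays, and differences are log2 fold changes of mimic against control ± SE. Values of different genes come from different probes and are not set against each other. The arrays held transcripts of myeloid cells in both groups: the neutrophil and monocyte gene S100a8 lay at 11.8 or higher on every array. Control array 1 stood apart from the other controls in dendritic cell genes. Measured from the mean of the controls, 8 such markers had a median of 0.67, -0.15 and -0.52 for controls 1, 2 and 3, and -1.81, -1.74 and -1.86 for mimics 1, 2 and 3. Of 5 markers of neutrophil precursors 2 rose and 0 fell at an adjusted p under 0.05 by limma, and all 5 had higher means. Upward 1.17% of all genes passed, and 3.69% of those at a mean log2 of at least 6. The log2 of the summed level of the 5 was between 11.12 and 11.89 in the controls and between 12.50 and 12.51 with the mimic. Of 7 measured markers of mature neutrophils 0 passed, and 6 had a higher and 1 a lower mean. These marker lists were chosen with earlier results of these data known. The part of these cell types in the differences below was not tested. In bulk samples like these, fewer cells of a type and less RNA per cell cannot be told apart.

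Genes of the actin cytoskeleton were lower or did not pass the test with the mimic, and none was higher. Of the 37 genes 7, or 18.9%, fell at an adjusted p under 0.05 by limma: the filament bundlers Fscn1, Lcp1 and Actn1, the smooth muscle-type genes Acta2 and Tagln, the tropomyosin gene Tpm4 and the filament-end protein gene Vasp. Among all 18193 genes 1.59% passed downward, 1.17% passed upward and 2.76% passed in either direction. The 7 falls ran from 1.45-fold to 2.47-fold. Of the other 30 genes 7 had a higher and 23 a lower mean with the mimic.

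The median difference over the 37 genes was -0.22, against 0.01 over all genes. In 18 of the 37, or 48.6%, every mimic array lay below every control array, which held for 11.1% of all genes; 1 gene, Vcl, lay above, against 11.0% of all genes. Most of these genes are bright, and bright genes passed more often (7.16% of those at a mean log2 of at least 6, 3.69% upward). Among the 29 with a mean log2 of at least 6, 5 fell, or 17.2%, against 3.47% of the 2304 genes at that level. In 13 of these 29, or 44.8%, all mimic arrays lay below all controls, against 21.8% of the genes at that level. The 8 below that level held the other falls, in Acta2 and Tagln.

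**Figure D1:**
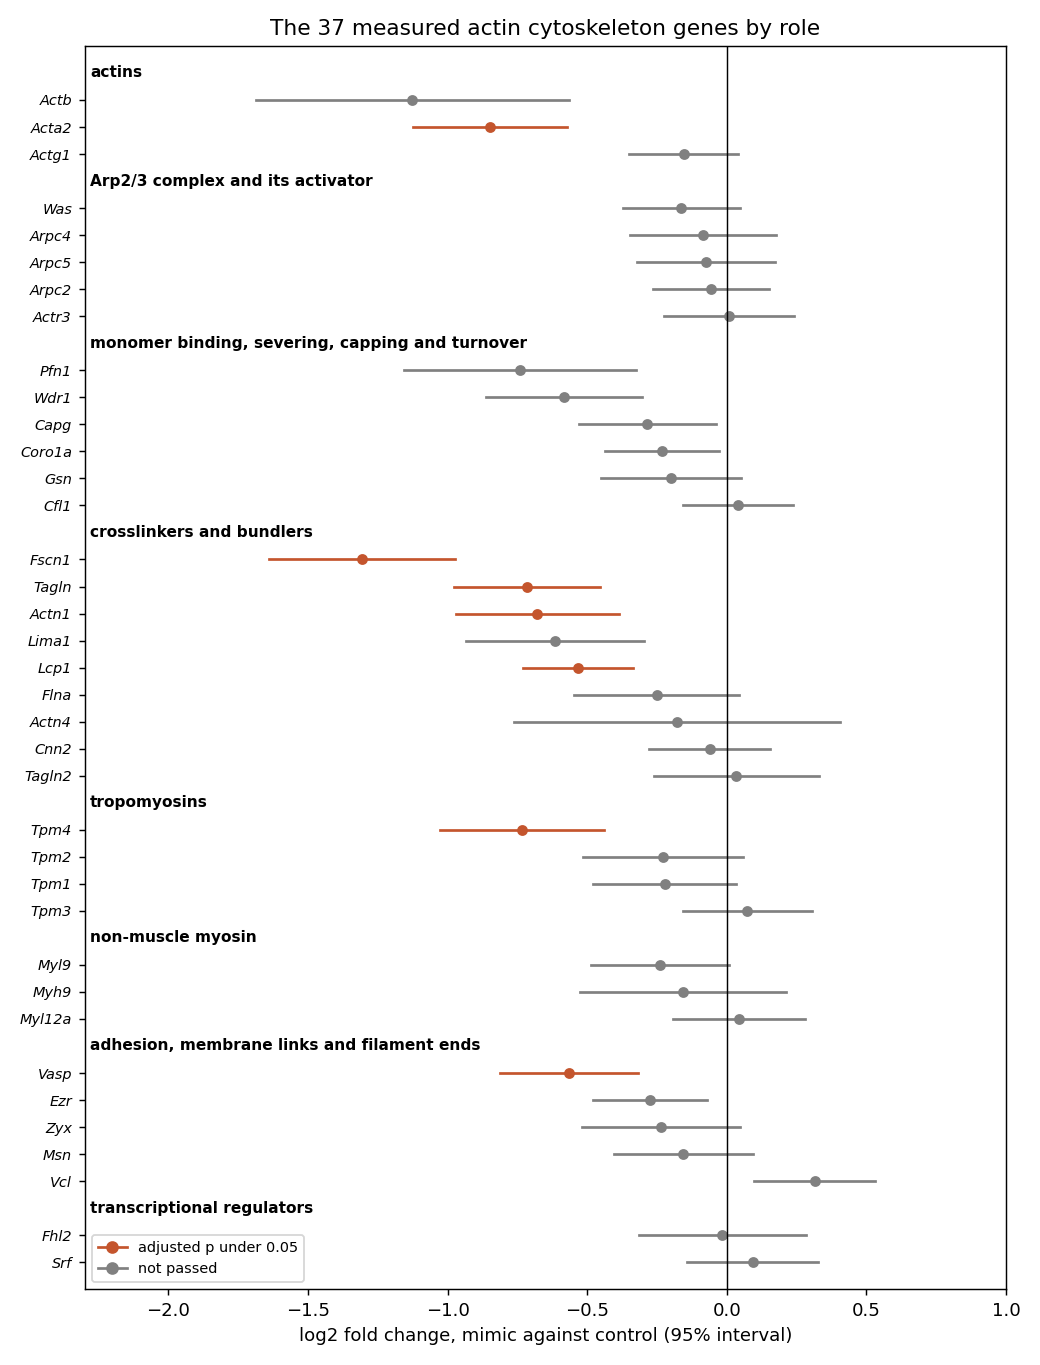
Log2 fold change of mimic against control (x axis) for each of the 37 measured genes, grouped by role, with its 95% interval; orange marks the genes at an adjusted p under 0.05 by limma. Fscn1 lies farthest to the left among the genes that passed, Actb lies at -1.13 with a wide interval, the Arp2/3 genes lie near 0, and Vcl lies to the right of 0.

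The calls rest on few arrays. With control array 2 left out, or mimic array 1, or mimic array 3, 0 of the 37 genes and 0 of all genes passed by limma, while 13, 13 and 15 of the 37 had an unadjusted p under 0.05, as did 14.1%, 12.9% and 15.1% of all genes. Without mimic array 2, Acta2 and Fscn1 remained. Without control array 1, Acta2, Actn1, Fscn1 and Lcp1 remained and Actb passed as well, and without control array 3 all but Actn1 remained and Lima1 and Wdr1 were added.

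Actins are the building block itself. Actb, the gene of cytoplasmic beta-actin (Entrez gene 11461), stood at 8.79, 9.54 and 9.85 on controls 1, 2 and 3 and at 8.21, 8.36 and 8.23 on mimics 1, 2 and 3. Every mimic array was below every control array, but the controls spread over more than the gap from the lowest control to the mimic arrays. The difference of -1.13 ± 0.24 missed the threshold (adjusted p = 0.0566 by limma). Without control array 1 it was -1.43 and passed (adjusted p = 0.0145), and adjusted p ran from 0.00453 to 0.855 over the alternatives. Actb is described in full because of its role, a choice made after its values were seen.

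Affymetrix also places control probe sets along the beta-actin transcript, which were kept apart from the gene. The 3′ control read 9.43, 9.98 and 10.25 on controls 1, 2 and 3 and 8.95, 8.96 and 8.98 on the mimics, a difference of -0.92. Differences at the middle and 5′ controls were -1.27 and -1.13. At each of the 3 positions the groups did not overlap, which is the smallest p that 3 arrays against 3 can give (exact permutation test, two-sided, p = 0.1). The excess of the 3′ over the 5′ control, a measure of RNA integrity, was 1.75 ± 0.09 among controls and 1.96 ± 0.39 among mimics (SD, n = 3; exact permutation test, two-sided, p = 0.5), with mimic array 2 highest at 2.39. The Gapdh controls, of a gene outside the actin system, were also lower with the mimic at the 3′, middle and 5′ positions without overlap, by smaller differences of -0.18, -0.27 and -0.31 (exact permutation test, two-sided, p = 0.1 each). Their 3′ over 5′ excess was 0.83 in mimic array 2 and between 0.24 and 0.37 on the other arrays.

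A second, dimmer probe set of Actb went the other way. It read 7.74, 6.07 and 5.58 in the control arrays and 6.91, 6.66 and 8.43 in the mimic arrays, so that its groups overlapped (difference 0.87 ± 0.63, adjusted p = 0.635 over all probe sets by limma). Its control arrays ran in the opposite order to those of the brighter probe set. With both averaged the difference of Actb was -0.13 (adjusted p = 0.855), so its value depends on the probe set read.

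**Figure D2:**
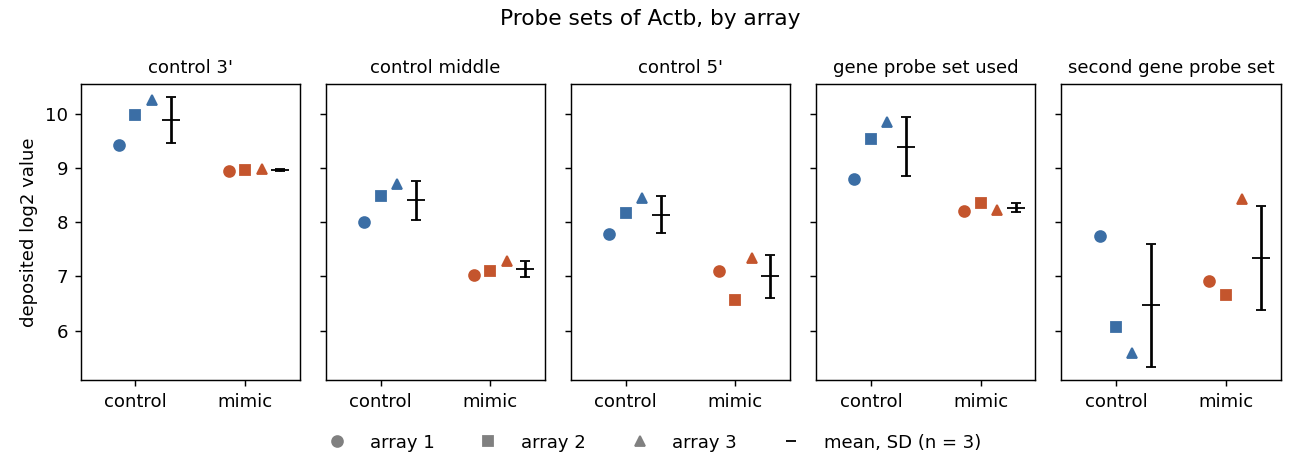
Deposited log2 values (y axis) of the 3 control probe sets of Actb and of its 2 gene probe sets on each array, with mean and SD over 3 arrays in black. The mimic arrays lie below the control arrays in the first 4 panels, and the groups overlap in the last, where control array 1 is the highest control instead of the lowest.

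Actg1, the gene of the other cytoplasmic actin, read 11.03, 11.05 and 11.08 in the control arrays and 10.89, 10.86 and 10.94 with the mimic. The groups did not overlap, but the difference was small at -0.15 ± 0.08, short of the threshold (adjusted p = 0.416 by limma). Its 95% interval ran from -0.35 to 0.04. Actg1 and, below, Wdr1 are given by array as a choice made after their values were seen. Acta2, which encodes the smooth muscle actin of contractile cells (Entrez gene 11475), read 6.24, 6.10 and 6.01 in control and 5.19, 5.47 and 5.15 with the mimic. All mimic values were lower, by 1.80-fold on average (-0.85 ± 0.12, adjusted p = 0.0159). The probe set carries the suffix of those that can match several transcripts, and the coding sequences of actins are nearly alike; a share of other actins in this value was not tested. Its 2 other probe sets lay near the floor of the arrays, and with the 3 averaged Acta2 was at -0.25 (adjusted p = 0.289), with the higher of those 2 used at -0.07 (adjusted p = 0.82; 0.00404 to 0.82 over the alternatives).

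The Arp2/3 complex starts new filaments on the side of old ones, and its activator in blood cells, the Wiskott-Aldrich protein, is encoded by Was. None of the 5 measured genes passed, and their differences ran from -0.16 in Was to 0.01 in Actr3, which encodes an actin-like subunit. The subunit genes Arpc2, Arpc4 and Arpc5 lay at -0.06, -0.09 and -0.07. A second, dimmer probe set of Arpc4 lay at -0.51 ± 0.14 with non-overlapping groups. It did not pass (adjusted p = 0.18 over all probe sets by limma). Further probe sets of Actr3 lay at 0.23 and 0.19 and did not pass. Was read 6.31, 6.41 and 6.34 in the control arrays and 6.10, 6.23 and 6.24 with the mimic. Its mimic arrays were all below its controls, by less than any gene that passed (-0.16 ± 0.09, adjusted p = 0.421 by limma). Across the probe sets used for the 5 genes, the 95% intervals stayed between -0.37 and 0.24.

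Proteins that handle monomers and dismantle filaments were next examined, and 0 of 6 genes passed. The largest difference was in Pfn1, the gene of profilin, which loads monomers onto growing ends. Pfn1 read 8.87, 8.70 and 8.57 in control and 7.90, 7.66 and 8.36 with the mimic. Mimic array 3 lay closest to the controls without reaching them, and the difference of -0.74 ± 0.18 did not pass (adjusted p = 0.0802 by limma). Wdr1, whose product helps cofilin take filaments apart, read 7.86, 7.67 and 7.45 in control and 7.02, 7.15 and 7.07 with the mimic. It narrowly missed the threshold (-0.58 ± 0.12, adjusted p = 0.0509), with an adjusted p from 0.0159 to 0.476 over the alternatives. The 2 further probe sets of Wdr1 had differences of -0.59 and -0.78, and neither passed.

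The capping protein gene Capg (-0.29 ± 0.11) and Coro1a, which encodes the coronin of blood cells (-0.23 ± 0.09), had non-overlapping groups and did not pass. Gsn, the gene of the severing protein gelsolin, lay at -0.20 ± 0.11. A slightly dimmer probe set of Gsn, without the suffix that marks possible cross-hybridisation, lay at -0.54 ± 0.13 with non-overlapping groups. It did not pass (adjusted p = 0.133 over all probe sets by limma). Other probe sets of Gsn of similar level, with the suffix, lay at -0.11 and -0.19. The main cofilin gene Cfl1 lay at 0.04 ± 0.08. A second probe set of Cfl1, without the suffix that marks possible cross-hybridisation, lay at -0.59 ± 0.17 and did not pass (adjusted p = 0.189 over all probe sets by limma), so the probe sets disagreed in sign.

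Crosslinkers and bundlers held 4 of the 7 falls among 9 genes. Fscn1 encodes fascin, which packs filaments into the tight bundles of spikes and dendrites (Entrez gene 14086). It read 7.00, 6.73 and 6.54 on controls 1, 2 and 3 and 5.49, 5.27 and 5.60 on mimics 1, 2 and 3. The groups lay far apart, with a 2.47-fold fall (-1.31 ± 0.14, adjusted p = 0.00859 by limma). With its 4 probe sets averaged, of which 2 lay near the floor, the difference was -0.66 and still passed (adjusted p = 0.0143). A second probe set of intermediate level lay at -1.09 ± 0.26 (adjusted p = 0.121 over all probe sets).

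Fascin marks mature dendritic cells, and markers of these cells moved with it. Of the 8 dendritic cell markers 6 fell, 0 rose and all 8 had lower means. Among all genes 1.59% passed downward. The list was chosen with earlier results of these data known and holds Ccl17, which had the largest fall of all genes (-4.55 ± 0.42). Its count is therefore not independent of these data. The log2 of the summed level of the 8 was between 10.32 and 11.50 in the control arrays and between 8.95 and 8.99 in the mimic arrays. In the controls Fscn1 was highest in array 1 and lowest in array 3, as these markers were. The same order of the control arrays was found in Acta2, Tagln and Tpm4, in 14 of the 37 genes (37.8%) and in 21.9% of all genes. The part of dendritic cells in these differences was not tested. Without control array 1 the difference of Fscn1 was -1.18 and passed (adjusted p = 0.0182 by limma; 0.00138 to 0.08 over the alternatives).

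Lcp1 encodes plastin 2, a bundler found mainly in blood cells (Entrez gene 18826). It read 10.07, 10.14 and 10.03 in control and 9.54, 9.54 and 9.56 with the mimic. Replicates were close in each group, and the fall was the smallest of the 7 in size at 1.45-fold (-0.53 ± 0.09, adjusted p = 0.022 by limma). Its second probe set lay at -0.87 ± 0.17 (adjusted p = 0.0701 over all probe sets).

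Actn1, the gene of the crosslinker alpha-actinin 1 (Entrez gene 109711), read 6.87, 7.18 and 7.11 in control and 6.48, 6.46 and 6.19 with the mimic. Control array 1 was the lowest control and mimic array 3 the lowest of all, with a 1.60-fold fall (-0.68 ± 0.13, adjusted p = 0.0344 by limma). Differences at the 2 dimmer probe sets of Actn1 were -0.84 and -0.99. Actn4, the gene of the related alpha-actinin 4, lay at -0.18 ± 0.25 with overlapping groups (adjusted p = 0.788). Whether the 2 actinins differ was not tested.

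Tagln encodes transgelin, a filament-binding protein of smooth muscle and stromal cells (Entrez gene 21345). It was dim, at 3.08, 3.07 and 2.94 in control and 2.13, 2.36 and 2.46 with the mimic. The groups did not overlap, and the fall was 1.64-fold (-0.72 ± 0.11, adjusted p = 0.0215 by limma). Markers of stromal cells were read beside Acta2 and Tagln: of 10, 2 fell and 0 rose, where 1.59% of all genes passed downward. The 2 that fell were Dcn (-1.58 ± 0.17), the gene of the matrix protein decorin, and Col1a2 (-0.95 ± 0.15), a collagen gene. Of the 10, 7 had a lower and 3 a higher mean with the mimic. The log2 of their summed level was between 5.90 and 6.28 in control and between 5.33 and 5.58 with the mimic. Most of the list was dim: 8 of the 10 had a mean log2 below 3, among them Dcn. Col1a2 was the brightest of the 10, and Lum, Pdgfra, Pdgfrb and Lepr had a mean below 1. Measured from the control mean, the median of the 10 overlapped between the groups. It was -0.20, 0.21 and -0.07 for controls 1, 2 and 3 and -0.19, -0.16 and -0.18 for mimics 1, 2 and 3. The part of stromal cells in the falls of Acta2 and Tagln was not tested.

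Of the other crosslinkers, Lima1, which encodes the bundler EPLIN, had non-overlapping groups (-0.62 ± 0.14, adjusted p = 0.0643 by limma). The filament-crosslinking filamin gene Flna lay at -0.25 ± 0.13. Tagln2, the transgelin gene of blood cells, lay at 0.03 ± 0.13 and the calponin gene Cnn2 at -0.06 ± 0.09, each with overlapping groups. A second probe set of Tagln2 of nearly the same level lay at -0.17 ± 0.09 with non-overlapping groups. It did not pass (adjusted p = 0.508 over all probe sets by limma). The sign of Tagln2 thus depends on the probe set read.

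**Figure D3:**
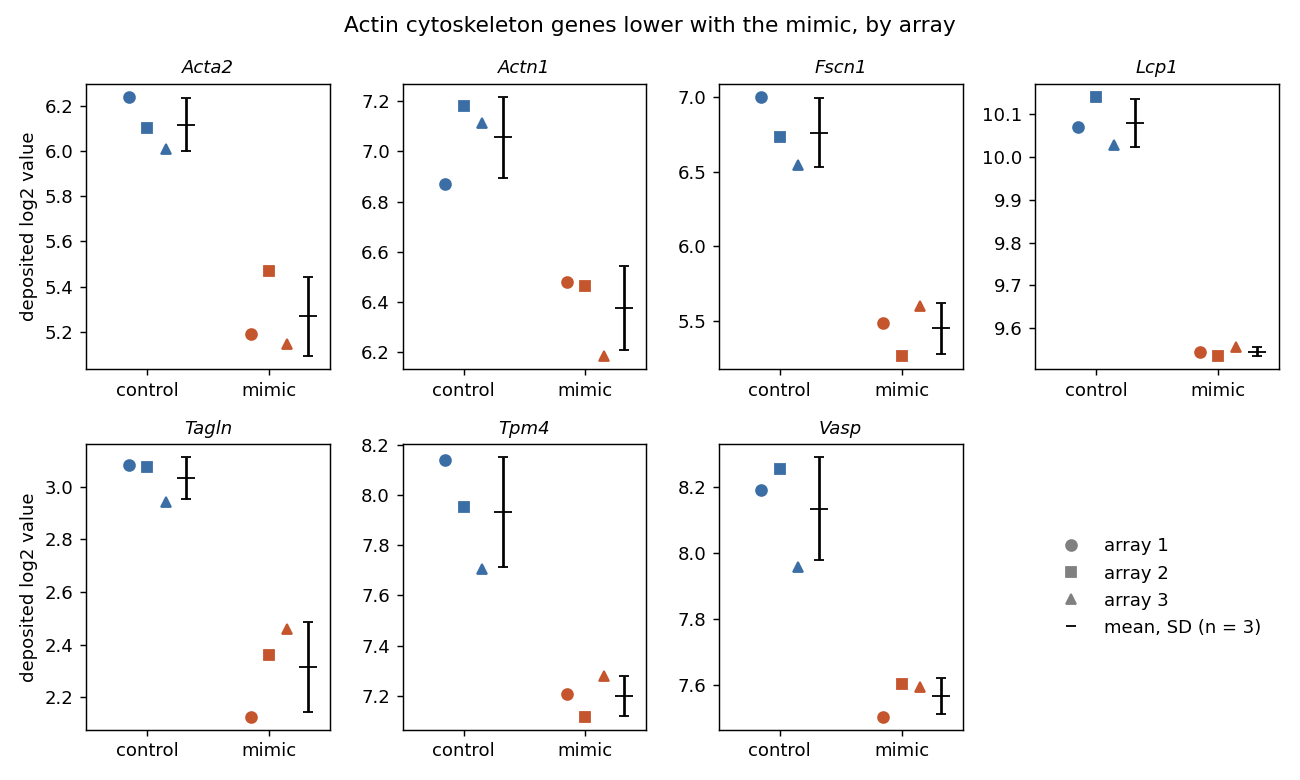
Deposited log2 values (y axis, a separate scale in each panel) on each array for the 7 genes that fell, with mean and SD over 3 arrays in black. In every panel the 3 mimic arrays lie below the 3 control arrays; control array 1 is the highest control in Acta2, Fscn1, Tagln and Tpm4 and the lowest in Actn1.

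Tropomyosins lie along filaments and decide which other proteins reach them. Of 4 genes 1 fell. Tpm4, which encodes a short cytoskeletal form (Entrez gene 326618), read 8.14, 7.95 and 7.71 in control and 7.20, 7.12 and 7.28 with the mimic. The lowest control still lay above the highest mimic array, and the fall was 1.66-fold (-0.73 ± 0.13, adjusted p = 0.0283 by limma). Tpm1 and Tpm2 lay at -0.22 ± 0.11 and -0.23 ± 0.12. Tpm3 lay at 0.07 ± 0.10.

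Non-muscle myosin pulls on filaments, and 0 of 3 genes passed. Myh9, the heavy chain gene, read 9.41, 9.10 and 9.09 in control and 8.78, 9.03 and 9.33 with the mimic. The groups overlapped (-0.16 ± 0.16, adjusted p = 0.688 by limma). The regulatory light chain genes Myl9 and Myl12a lay at -0.24 ± 0.11 and 0.04 ± 0.10, and Myl9 was dim in both groups.

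Among 5 genes of adhesion sites, membrane links and filament ends, Vasp fell. Its product keeps filament ends growing (Entrez gene 22323). Vasp read 8.19, 8.25 and 7.96 in control and 7.50, 7.60 and 7.60 with the mimic, a clear gap and a 1.48-fold fall (-0.57 ± 0.11, adjusted p = 0.0357 by limma). Vcl encodes vinculin, which ties filaments to integrin adhesions, and it was the only gene of the 37 with all mimic arrays above the controls. It read 6.32, 6.50 and 6.46 in control and 6.79, 6.75 and 6.68 with the mimic. The difference of 0.31 ± 0.09 did not pass (adjusted p = 0.136), except where only genes of a mean log2 of at least 5 were tested (adjusted p = 0.0403; range over the alternatives 0.0403 to 1). A dim second probe set of Vcl lay at -0.76 ± 0.32, and with both averaged the sign turned (-0.22, adjusted p = 0.577). Vcl was singled out after its values were seen. Ezr, the gene of the membrane linker ezrin, lay at -0.28 ± 0.09, its relative Msn at -0.16 ± 0.11, and the adhesion gene Zyx at -0.24 ± 0.12. None of these passed.

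Srf, the gene of the transcription factor that drives many actin genes, read 3.89, 3.87 and 3.92 in control and 4.03, 4.11 and 3.83 with the mimic. The groups overlapped (0.09 ± 0.10, adjusted p = 0.715 by limma). A second probe set of Srf of nearly the same level lay at -0.25 ± 0.17 (adjusted p = 0.589 over all probe sets). The sign of Srf thus depends on the probe set read. Fhl2, a cofactor gene, was dim and lay at -0.02 ± 0.13.

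The CArG box, the sequence SRF binds, was looked for in RefSeq promoters (GRCm38.p6) from 250 bases before to 50 after each start. It has 10 bases, reads as the same pattern on both strands and can overlap other A/T-rich elements such as a TATA box. Only the exact form was searched, CC, then A or T bases alone, then GG. Boxes with a changed base were not looked for. Promoters were listed for 35 of the 37 genes, and not for Actb and Tagln. Of the 35, 8 held a box (22.9%), against 1.58% of all measured genes with a promoter. These were Actg1, Arpc4, Cnn2, Fhl2, Lima1, Myl9, Srf and Vcl. The 37 genes were chosen from knowledge of the pathway and include Srf itself, so this share does not come from a blind list. Among further actin regulators, a list described below, 6 of the 84 with a promoter held a box (7.14%). None of the 8 passed, and their differences ran from -0.62 in Lima1 to 0.31 in Vcl. Of the 6 genes that fell and had a promoter listed, 0 held a box in this window. A match is a description of letters and not a bound site. No match says only that this exact pattern is not in this window. The sequences below show the boxes of 5 of these genes, chosen as Srf itself, the actin gene, the genes at either end of the range, and Cnn2 for its shared box, with the box in capitals and 10 bases on each side. Srf holds a pair that overlap in their flanks.
Srf, minus strand, chr17:46556225-46556254: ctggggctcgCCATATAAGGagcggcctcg
Srf, minus strand, chr17:46556205-46556234: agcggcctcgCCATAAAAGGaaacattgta
Actg1, minus strand, chr11:120348566-120348595: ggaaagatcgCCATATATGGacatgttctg
Lima1, minus strand, chr15:99820177-99820206: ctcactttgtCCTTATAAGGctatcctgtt
Vcl, plus strand, chr14:20929161-20929190: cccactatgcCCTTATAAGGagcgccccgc
Cnn2, plus strand, chr10:79988534-79988563: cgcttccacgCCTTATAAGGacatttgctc
Lima1, Vcl and Cnn2 share the same box, and lay at -0.62, 0.31 and -0.06.

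Probe sets of the same gene were also set side by side. The 37 genes had 88 probe sets in all, and 26 genes had more than 1. Of the 51 that were not used for a gene, 27 had a mean log2 of at least 3. Among these 27, 23 had a lower mean with the mimic and 18 had the sign of the probe set used. None of the 51 passed over all 45037 probe sets by limma, where 0.897% did, and 4 of the 37 used ones did: those of Acta2, Fscn1, Lcp1 and Tagln. Among the 27 the largest disagreements were in Actb, Msn, Tpm3 and Cfl1. Dimmer probe sets of Fscn1, Vcl and Acta2 disagreed in sign with the ones used. A dimmer probe set of Msn lay at -1.04 ± 0.38 (adjusted p = 0.291), and 1 of Tpm3 at -0.64 ± 0.18 (adjusted p = 0.18).

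**Figure D4:**
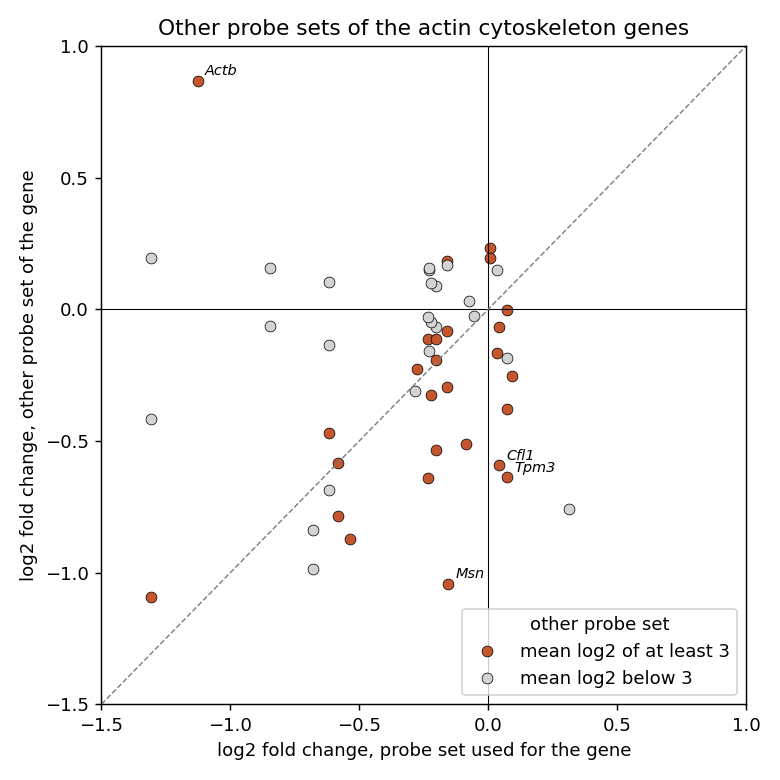
Log2 fold change of each of the 51 other probe sets (y axis) against that of the probe set used for the same gene (x axis), with those of a mean log2 of at least 3 in orange, the dimmer ones in grey, and a dashed line of equal values. The second probe set of Actb lies alone at the upper left at 0.87, and those of Msn, Cfl1 and Tpm3 lie below the line.

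Genes that act with these were read from a list of 102 further actin regulators, of which 94 were measured. That list too was chosen with earlier results of these data known. Rock2, Pak1, Arhgdia, Actr3b, Cyfip1, Twf1 and Gmfg were among those not analysed here. Of the 94 genes 4 fell, 2 rose and 88 did not pass. The share lower was 4.26%, against 1.59% of all genes and 3.47% of those at a mean log2 of at least 6. In either direction 6.38% passed, against 2.76% of all genes and 7.16% of those at that level. Upward 1.17% of all genes passed. With control array 2, mimic array 1 or mimic array 3 left out 0 passed, and without control array 1 or mimic array 2 there were 2 falls and 0 rises. Their median difference was -0.08, and in 24 of the 94, or 25.5%, all mimic arrays lay below all controls, against 11.1% of all genes and 21.8% of those at a mean log2 of at least 6. Of 14 nucleators and their activators 1 fell and 1 rose, of 16 proteins of monomers, severing and capping 0 passed, and of 22 crosslinkers and membrane or adhesion links 2 fell and 1 rose. Of 12 myosin genes 1 fell, and of 9 other actins, calponins and SRF cofactors 0 passed.

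Enah, a relative of Vasp that also extends filament ends, read 5.76, 6.03 and 5.60 in control and 4.44, 4.63 and 4.29 with the mimic. It had the largest difference of the list, a 2.53-fold fall with wide separation (-1.34 ± 0.14, adjusted p = 0.00747 by limma). Of its 5 other probe sets 3 had differences of -1.04, -1.16 and -0.77, and with all averaged it was at -0.75. Myo1e, the gene of a membrane-bound motor, fell from 4.74 ± 0.29 to 3.73 ± 0.16 (SD, n = 3), or 2.02-fold. Marcksl1, which encodes an actin-binding protein of the membrane, fell from 7.85 ± 0.06 to 6.98 ± 0.15.

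Hcls1, which encodes a cortactin relative of blood cells that stabilises Arp2/3 branches, fell from 6.20 ± 0.14 to 5.62 ± 0.08. Cttn, the gene of cortactin itself, rose from 3.87 ± 0.09 to 4.35 ± 0.04, so that the pair moved in opposite directions. Marcks, a relative of Marcksl1, rose from 6.76 ± 0.16 to 7.42 ± 0.10, and this pair did so as well. When the probe sets of each gene were averaged, neither rise passed (Cttn 0.12, adjusted p = 0.525; Marcks 0.26, adjusted p = 0.3, by limma), and Myo1e was at -0.49 (adjusted p = 0.0582). Over all alternatives adjusted p ran from 0.0162 to 0.553 for Cttn, 0.00786 to 0.3 for Marcks and 0.00776 to 0.134 for Myo1e. For Hcls1 it ran from 0.00902 to 0.317, and Hcls1 passed in 9 of 17 alternatives.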

How the data were processed

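Per the labels, biotin was put into the RNA by in vitro transcription (16 h), and the authors deposited 1 log2 value per probe set and array. The submitters' processing notes name RMA and affy, with no version. No source used here gives floor or log base; log2 was taken because the highest value, 12.3, is above what a natural log of a 16-bit scan can reach, 11.1. Of all values 52.6% lie below 1. Probe sets were named from the platform annotation, with symbols updated through RefSeq gene identifiers (34741 of 34945 matched); 932 with several symbols and 9160 without a symbol did not enter. Values were used as deposited.

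Mimic and control were set against each other by limma 3.58.1, R 4.3.3 (lmFit, then eBayes, with two-sided p-values and without covariates), with Benjamini-Hochberg adjustment over 18193 genes. The fit was tested on simulated data with changes set in genes of a mean log2 of at least 3. It recovered 18.8% of log2 changes of 0.5, 75% of those of 1 and 96% of those of 2. Small changes were thus mostly missed. Control probe sets were compared by exact permutation (scipy 1.17.1). The members and lists were chosen with earlier results of these data known. Genes described singly were each called gene and, in role groups without a call, the largest difference at a mean log2 of at least 3; of the further regulators, those called. Actb, Actg1, Wdr1 and Vcl were added after their values were seen. The counts of 1 group of these regulators are not reported here. Alternatives were the replicate block, each array left out, dim-gene filters, other probe set rules, variance models, array weights, centring, quantile normalisation and a minimum fold of 1.2.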

Additional observations from a re-analysis of the deposited data

How the results depend on the processing

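The numbers of actin genes lower, further regulators lower, further regulators higher, all genes lower and all genes higher were 7, 4, 2, 290 and 213. With the replicate number as a block they were 2 (Acta2 and Fscn1), 3, 1, 188 and 126; same-numbered arrays did not deviate together (correlations of -0.10, 0.25 and -0.19), so the numbers were not taken as pairs. Genes of a mean log2 of at least 3 (7662 tested) gave 10, 8, 4, 408 and 300. Those of at least 5 (4093 tested) gave 10, 13, 2, 350 and 291, with 1 actin gene, Vcl, higher. With probe sets averaged the counts were 6, 6, 1, 280 and 197, with each fitted on its own 4, 3, 0, 160 and 104, and with a trended robust variance 10, 9, 3, 429 and 320. Array weights gave 11, 9, 4, 591 and 456. Quantile normalisation gave 9, 5, 4, 290 and 322, and centring gave 9, 6, 2, 351 and 210. A minimum fold of 1.2 gave 1 (Fscn1), 2, 0, 70 and 38. Leaving out single arrays gave 0 to 8, 0 to 5, 0 to 2, 0 to 248 and 0 to 165, and actin genes higher stayed at 0. The causes were not tested. The median difference of the actin genes ran from -0.24 to -0.16 with single arrays left out, the latter without mimic array 1. None of the 13 genes that passed among members and regulators changed sign under any alternative that could be computed; Tagln, Cttn and Myo1e gave no value where a filter on dim genes removed them. With 3 arrays a group and many values near the floor, small differences among the 30 genes that did not pass are not shown to be absent.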
